A study of Mus musculus with 11 samples.

Results

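Fos, Fosb, Fosl2, Jun, Junb and Jund encode subunits of the transcription factor AP-1, and their RNA was followed here in 11 libraries of mouse hippocampus. They are 6 of the 30681 genes in the deposited count table. The genes were chosen by symbol, with an earlier comparison of these same libraries in view, in which Fos, Fosb and Junb had lower values in the knockout group. The difference between the genotypes is therefore given as a description, with its standard error and no test of its own, and supports nothing. Mice with a conditional knockout (cKO) of Dclk3, which encodes a kinase of the doublecortin-like family, were set against wild-type (WT) mice. All mice were aged 6 months, and each library held polyadenylated RNA from 1 hippocampus, with 6 cKO-labelled libraries and 5 WT. The sources used here give neither the recombinase that makes the knockout conditional nor the exons removed. Whether each library is a separate animal is not stated, so the spread between them, and any p-value resting on it, may be partly technical.

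AP-1 is a dimer of basic leucine zipper proteins. Among Fos and Jun proteins, a Fos protein must pair with a Jun protein, whereas Jun proteins can also pair with each other. In neurons, calcium entry and MAP kinase signalling switch on Fos, Fosb and Junb within minutes through factors already bound at their promoters, and the RNAs are short-lived. For that reason Fos RNA is widely read as a mark of recent activity. Jund is made more steadily, Jun responds to stress kinases as well as to activity, and Fosl2 encodes Fra-2, a Fos protein that lacks a strong activating domain.

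The total count ran from 24001828 to 35674490 per library. Levels are in CPM, counts scaled to a common library size after TMM scaling, which adjusts each library's total for differences in RNA composition. For Dclk3 itself the 6 cKO-labelled libraries averaged 20.1 ± 3.44 CPM (SD) and the 5 WT libraries 22.4 ± 3.31 CPM (SD), with overlapping groups, so the group is called cKO-labelled. With the removed exons not given, a count over the whole gene does not by itself check the label. By Xist and 4 Y-linked genes, WT replicates 1, 3 and 4 were female and the other 8 libraries, including all 6 labelled cKO, were male. Markers of dentate granule cells, CA1 and CA3 pyramidal cells, interneurons and glia were all present: none of the 79 marker genes in 13 lists was at 0 throughout, and the summed level of each list overlapped between the groups.

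Compared per length, as CPM per kb of annotated exon, the levels fell into a steady order with the Jun family above the Fos family. Jund was highest, with 66.9 ± 5.77 CPM per kb in the cKO-labelled group and 70.2 ± 5.75 for WT (mean ± SD of 6 and of 5 libraries, as in all such pairs that follow). Jun followed with 42.0 ± 2.86 and 40.5 ± 4.35 CPM per kb, and Junb with 18.8 ± 1.55 and 26.2 ± 4.73. Fosl2 had 5.49 ± 0.748 and 5.10 ± 0.415 CPM per kb, Fos 3.44 ± 0.667 and 6.49 ± 1.63, and Fosb 1.17 ± 0.109 and 1.49 ± 0.207. Each step of this order but one held in all 11 libraries, with ranges that did not overlap. The exception was the step between Fosl2 and Fos, whose ranges overlapped: Fosl2 was above Fos in all 6 cKO-labelled libraries and in 1 of 5 WT libraries, replicate 5. This step depends on the lengths used, which join all annotated exons: 9.68 kb for Fosl2 and 2.352 kb for Fos. In CPM, not divided by length, Fosl2 was above Fos in every library, with at least 42.4 against at most 18.7. Among all genes tested with a known exon length, Jund stood at percentile 96.7 by level per kb, Jun at 93.7, Junb at 87.1, Fosl2 at 57.0, Fos at 54.7 and Fosb at 29.1.

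**Figure D1:**
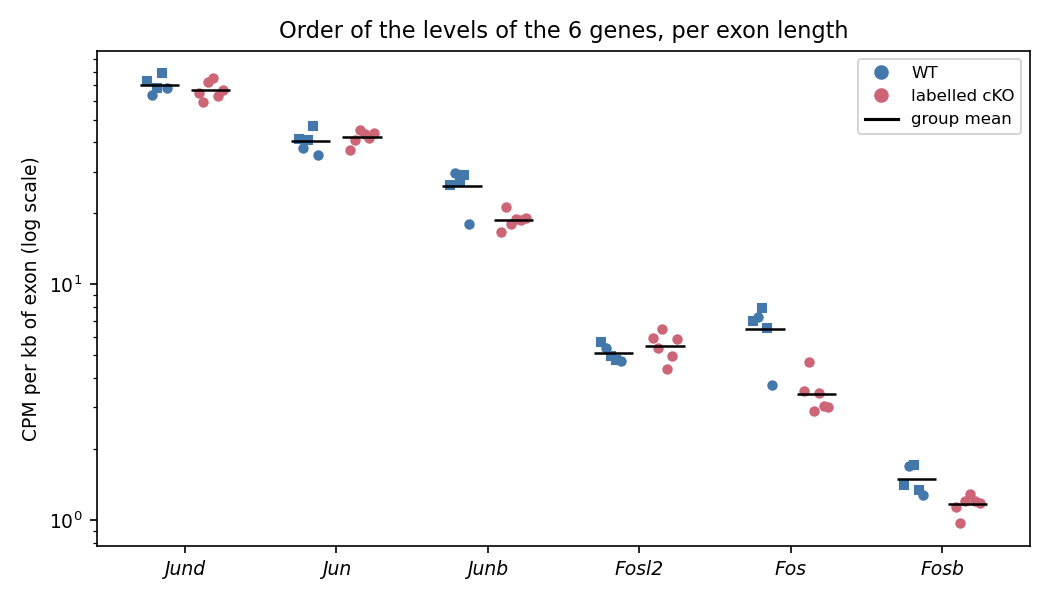
Level of the 6 genes in CPM per kb of exon on a log axis, 1 point per library (squares female, circles male, by Xist and Y-linked genes), with lines at the group means. Jund, Jun and Junb lie above the Fos family in every library, and the order of Fosl2 and Fos differs between most WT libraries and those labelled cKO.

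Fosl1, the remaining gene of the Fos family, had 0 to 5 counts per library, which was under the filter on low counts, and was not tested. It encodes Fra-1. Summed per kb, the 3 Fos genes reached 10.1 ± 0.773 CPM per kb in the cKO-labelled libraries and 13.1 ± 2.01 in WT, against 128 ± 7.62 and 137 ± 12.3 for the 3 Jun genes. Jund alone made up 43.6% to 51.9% of the summed level of the 6 genes in the 11 libraries, and Fosb 0.729% to 1.17%.

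The promoters of the early-response members are shown with that of Jun, the member that responds to stress kinases as well, so that their known classes of site can be set side by side. The 140 bases before each GENCODE M21 gene start were read from RefSeq's promoter sequences (GRCm38.p6, the same coordinates as mm10), each 5′ to 3′ on the gene's strand. Capitals mark the 5-base core of the cAMP response element (CRE; TGACG), a variant of the full CRE (TGACATCA), the TATA box (TATAAA) and the GC box (GGGCGG), found on either strand, with no overlap among them. The starts of Fosl2 and Jund in the 2 annotations lay 671 and 1210 bases apart, so no window is given for them. Those of Junb differed by 30 bases and those of Fosb by 6.
Fos, chr12:85473750-85473889, plus strand: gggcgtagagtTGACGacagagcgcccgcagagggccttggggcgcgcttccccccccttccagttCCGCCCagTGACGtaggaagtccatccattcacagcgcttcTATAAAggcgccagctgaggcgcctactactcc
Fosb, chr7:19310052-19310191, minus strand: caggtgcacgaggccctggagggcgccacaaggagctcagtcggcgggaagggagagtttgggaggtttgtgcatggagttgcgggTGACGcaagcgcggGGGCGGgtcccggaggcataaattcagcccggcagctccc
Junb, chr8:84978719-84978858, minus strand: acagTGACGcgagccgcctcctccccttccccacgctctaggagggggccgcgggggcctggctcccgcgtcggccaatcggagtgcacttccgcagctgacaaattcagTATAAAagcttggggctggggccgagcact
Jun, chr4:95052223-95052362, minus strand: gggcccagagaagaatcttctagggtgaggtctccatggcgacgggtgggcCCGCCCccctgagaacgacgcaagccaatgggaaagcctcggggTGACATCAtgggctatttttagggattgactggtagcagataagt

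The CRE core was present in the windows of Fos, Fosb and Junb and not in that of Jun. It began 129 and 66 bases before the start in Fos, 54 in Fosb and 136 in Junb. Among 32851 promoter windows of the same length 12.8% held it. Those windows, as in all shares given here, end at the RefSeq start and not at the GENCODE start. The TATA box began 33 bases before the start of Fos and 30 before that of Junb, against 7.21% of all windows. The RefSeq start of Junb lies 30 bases upstream, so in a window ending there its TATA box would not be counted. The variant TGACATCA, looked for after the data were seen, began 45 bases before the start of Jun, against 2.28% of all windows. A GC box was found in Fos, Fosb and Jun, against 28.0% of all windows. The full CRE (TGACGTCA), the AP-1 site (TGACTCA) and the SRE CArG box, the site of serum response factor, had no match in these 4 windows (1.33%, 2.68% and 0.861% of all windows). Bases farther upstream than these windows were not searched, so a missing match does not mean that the gene lacks the site. This holds for the SRE of Fos as well. A match is only a match of letters.

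In the Fos family, Fos had the largest difference in value between the groups, lower in the cKO-labelled libraries. Fos (ENSMUSG00000021250, chromosome 12, 85473890 to 85477273, plus strand, mm10) had 16.45, 17.1, 18.7, 15.3 and 8.79 CPM in WT replicates 1 to 5. In the cKO-labelled libraries it had 6.83 CPM at the lowest, a median of 7.66 and 11.05 at the highest, in replicate 2. The groups overlapped only between 2 libraries: WT replicate 5, the lowest of WT, lay below cKO-labelled replicate 2 and above the other 5, while the other 4 WT libraries lay above all 6. In bulk tissue, fewer cells of a type and less RNA per cell cannot be told apart. The mean was 8.09 ± 1.57 CPM against 15.3 ± 3.82 CPM, a ratio of 0.53, and the log2 fold change was -0.91 ± 0.18 (SE; 95% interval -1.32 to -0.51). These levels rest on 171 to 637 counts per library, a counting error of 3.96% to 7.65%, well under the variation between libraries of a group (19.4% and 25.0% CV).

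Fosb showed a smaller difference in the same direction. Fosb (ENSMUSG00000003545, chromosome 7, 19302696 to 19310051, minus strand, mm10) had 8.76, 10.6, 10.7, 8.37 and 7.95 CPM in WT replicates 1 to 5. The cKO-labelled libraries ran from 6.05 CPM in replicate 2, with a median of 7.45, to 8.06 in replicate 4. The groups overlapped by a narrow margin, between WT replicate 5 and cKO-labelled replicate 4. The means were 7.27 ± 0.679 and 9.28 ± 1.29 CPM, and the log2 fold change was -0.35 ± 0.10 (SE). The counts do not separate full-length FosB from its truncated, longer-lived form, since 1 number covers the whole gene.

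Fosl2 did not share this pattern. Fosl2 (ENSMUSG00000029135, chromosome 5, 32135801 to 32157842, plus strand, mm10) had 55.2, 51.75, 47.9, 46.0 and 46.0 CPM in WT replicates 1 to 5, and 42.4 to 62.3 CPM, with a median of 54.3, in the cKO-labelled libraries. The highest and the lowest of all 11 values were both in the group labelled cKO. The log2 fold change was 0.11 ± 0.09 (SE; 95% interval -0.09 to 0.30), with 0.05 without cKO-labelled replicate 3 and 0.16 without replicate 4.

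In the Jun family, Junb had the largest difference in value, in the same direction as Fos and with a similar layout of libraries. Junb (ENSMUSG00000052837, chromosome 8, 84974484 to 84978718, minus strand, mm10) had 60.8, 68.4, 63.3, 67.1 and 41.55 CPM in WT replicates 1 to 5. The cKO-labelled libraries had 38.3 CPM at the lowest, a median of 43.4 and 49.2 at the highest, in replicate 2. WT replicate 5 lay among the cKO-labelled libraries, above 2 of them, and the other 4 WT libraries lay above all 6. The means were 43.3 ± 3.56 and 60.2 ± 10.9 CPM, a ratio of 0.718, and the log2 fold change was -0.48 ± 0.11 (SE). Its annotated exons share 173 bases with Prdx2 on the other strand, and whether counting used the strand is not given. Prdx2 had 190 to 229 CPM and a log2 fold change of 0.06 ± 0.05 (SE).

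Jun and Jund, the most abundant members, differed little between the groups when all libraries were used. Jun (ENSMUSG00000052684, chromosome 4, 95049034 to 95052222, minus strand, mm10) had 132, 121, 131, 149 and 112 CPM in WT replicates 1 to 5, and 118 to 144 CPM, with a median of 136, in the cKO-labelled libraries. Both ends of its range were in WT, and the log2 fold change was 0.05 ± 0.07 (SE). In the 8 male libraries and with a sex term the log2 fold change of Jun was 0.20 ± 0.08 (SE). Jund (ENSMUSG00000071076, chromosome 8, 70698949 to 70700616, plus strand, mm10) had 121, 106, 114, 131 and 113 CPM in WT replicates 1 to 5, and 99.5 to 125 CPM, with a median of 110.1, in the cKO-labelled libraries. Its log2 fold change was -0.07 ± 0.06 (SE), and the sign turned to 0.03 in the 8 male libraries and with a sex term. Within WT the 3 female libraries lay above both males for Jun and for Jund, by a margin of less than 1 CPM for Jund, a difference that was not tested. Jun shares 232 exon bases with the antisense gene Junos (0.928 to 1.51 CPM). Jund shares 877 of its 1668 with the antisense gene Gm11175 (3.06 to 5.18 CPM). Both antisense genes were far less abundant, with log2 fold changes of 0.20 ± 0.18 and -0.32 ± 0.11 (SE). Whether counting used the strand is not given, and the effect of the shared bases on the levels per kb was not tested.

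**Figure D2:**
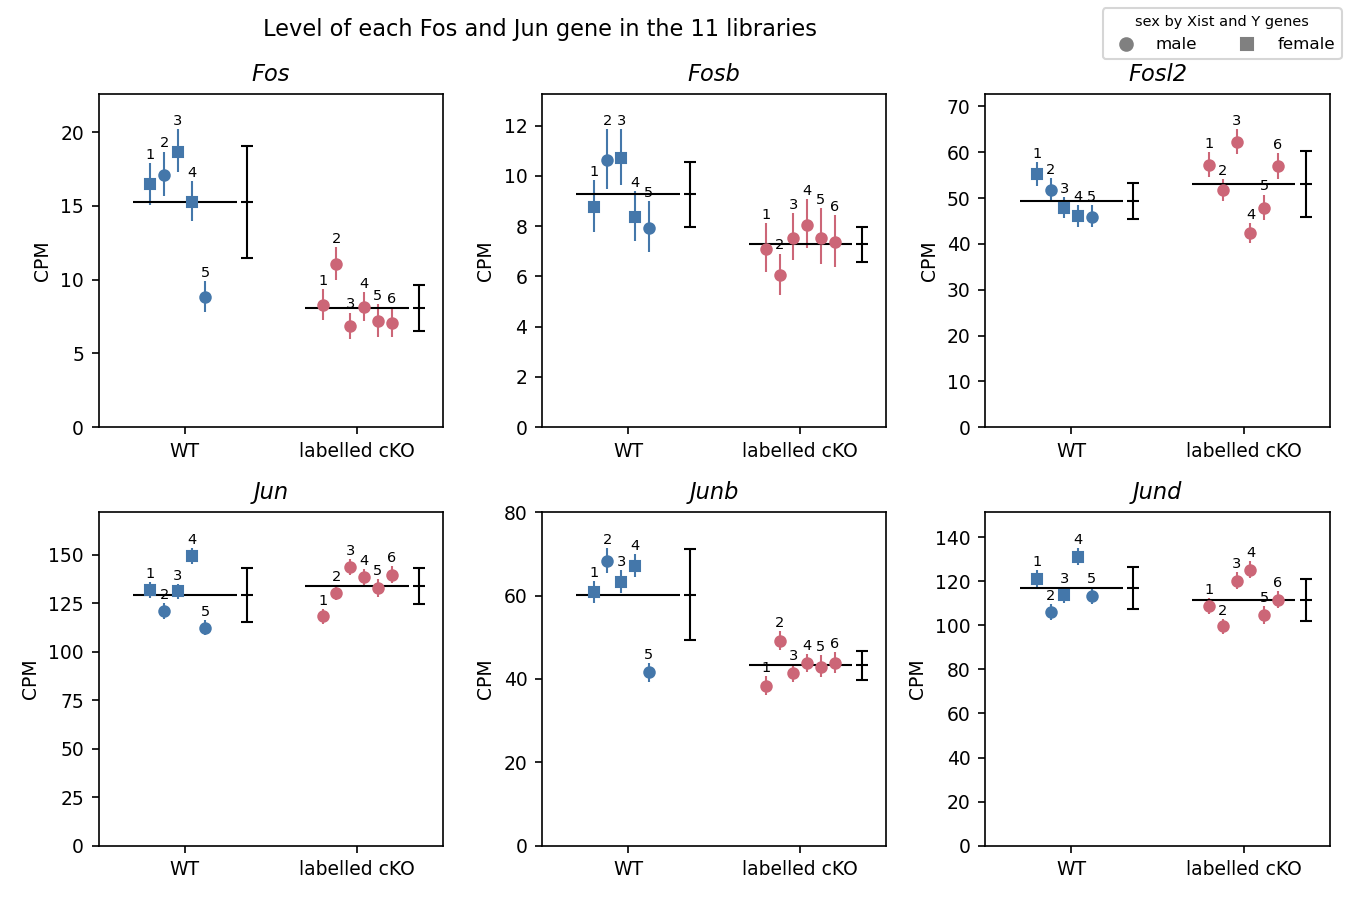
CPM of each gene in every library, labelled by replicate number, with the 95% Poisson interval of the count (vertical line), the group mean (horizontal line) and ± 1 SD (bracket); squares are female and circles male libraries. For Fos and Junb, WT replicate 5 sits within the range of the cKO-labelled libraries and the other 4 WT libraries sit above it, while the groups mix for Fosl2, Jun and Jund.

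Ratios of counts within a library do not depend on how libraries are scaled. They are made from the same counts as the differences above, so they are no separate evidence. There were 7.35 ± 1.95 Fos counts per 100 Jund counts in the cKO-labelled libraries and 13.1 ± 3.58 in WT, and 15.6 ± 4.01 against 30.8 ± 7.33 per 100 Fosl2 counts. Junb had 39.1 ± 5.73 and 51.7 ± 10.1 counts per 100 of Jund. WT replicate 5, with 7.76 Fos and 36.7 Junb counts per 100 of Jund, was the lowest WT library for both ratios. Relative to Fos itself, the other early genes had higher values in the cKO-labelled libraries: Junb had 546 ± 76.4 counts per 100 of Fos against 404 ± 53.5, and Fosb 93.2 ± 20.6 against 63.6 ± 15.4. The groups overlapped in every one of these ratios.

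Of 6 members, edgeR's quasi-likelihood test over 16587 genes called 0 at an adjusted p under 0.05, where 0.0% of all genes were called. With no adjustment (p under 0.05), 3 were lower, Fos, Fosb and Junb, against 5.35% of all genes, and 0 higher, against 3.84%. DESeq2, fitted to the same genes, called 2 lower, Fos and Junb, against 0.193% of all genes, and 0 higher, against 0.181%. For none of the 6 did every cKO-labelled library lie below every WT library, as it did for 0.512% of genes. The members were proposed from this contrast, so nothing is read from these counts.

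Leaving out single libraries moved these values. Without WT replicate 5, every cKO-labelled library lay below the 4 remaining WT libraries for Fos, Fosb and Junb, as for 0.959% of all genes, and the log2 fold changes were -1.06 ± 0.12, -0.40 ± 0.10 and -0.59 ± 0.06 (SE). Fos and Junb then passed edgeR's test (adjusted p = 0.000662 for each), where 0.0836% of all genes were called lower. That library was the lowest of WT for Fos, Fosb and Junb, so leaving it out widens these differences by construction. Nothing is read from these calls. Without cKO-labelled replicate 2 the Fos values also no longer overlapped, as for 0.79% of all genes, and the log2 fold change of Fos was -1.02 ± 0.16 (SE). That library had the highest Fos value of its group, so leaving it out widens the difference by construction as well. In the 8 male libraries, with 2 WT libraries left, Fos was at -0.67 ± 0.24, Junb at -0.34 ± 0.16 and Fosb at -0.35 ± 0.14 (log2 ± SE). The male WT libraries themselves stood apart, with Fos at 17.1 CPM in replicate 2 and 8.79 CPM in replicate 5, and Junb at 68.4 and 41.55 CPM. The female WT libraries had 15.3 to 18.7 CPM of Fos and 60.8 to 67.1 CPM of Junb. The sex term gave -0.67 for Fos, -0.34 for Junb, -0.35 for Fosb and 0.20 for Jun (log2). Since no cKO-labelled library was female, sex and genotype cannot be told apart beyond these male values.

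**Figure D3:**
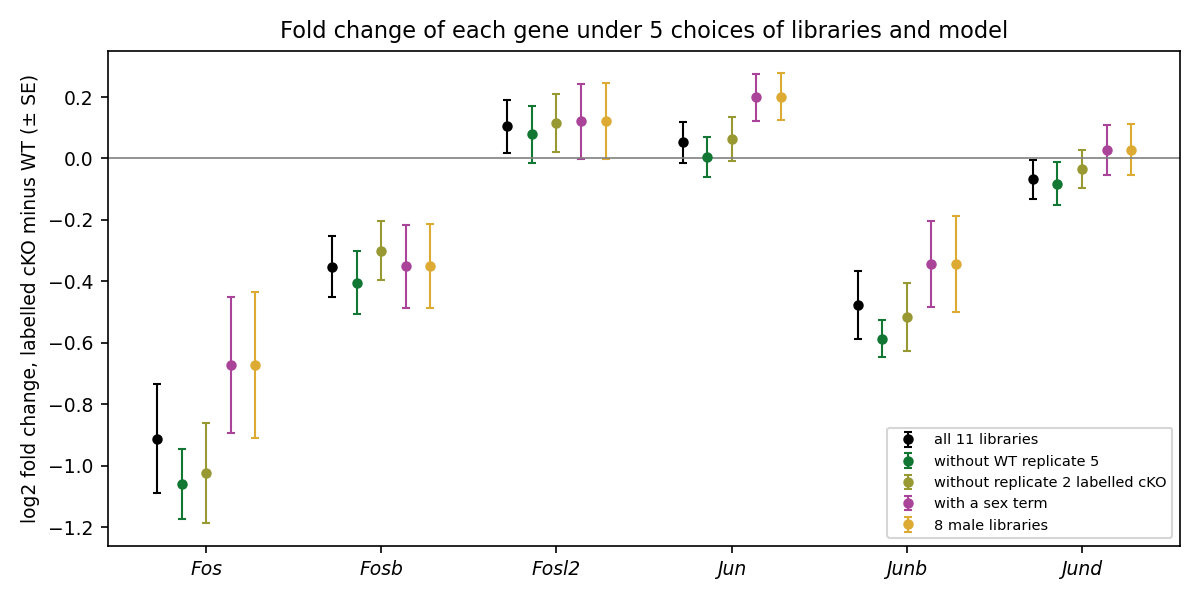
Log2 fold change (labelled cKO minus WT) with its standard error for each gene, with all 11 libraries, without WT replicate 5, without cKO-labelled replicate 2, with a sex term, and in the 8 male libraries. Fos, Fosb and Junb lie below 0 in all 5, Fosl2 and Jun at or above 0, and Jund changes sign with the sex term and in the males.

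Variation between libraries of the same group does not use the genotype, so it was tested. Fos varied most: its biological coefficient of variation, the spread beyond counting error in edgeR's model, was 20.2%, at percentile 88.6 of all genes tested. Junb had 12.6% (percentile 68.1), Fosb 11.3% (62.9), Fosl2 10.1% (57.1), Jun 8.11% (42.4) and Jund 7.84% (39.8). The log2 CPM of each gene, centred on its group mean, was then compared between members over the 11 libraries, in 15 pairs. Fos and Junb had the highest correlation, with Pearson's r = 0.843 and Spearman's rho = 0.755 (2-sided exact permutation within groups, p = 0.0278 and 0.0268, Benjamini-Hochberg adjusted over the 15 pairs 0.251 and 0.201). Jun and Jund had r = 0.665 and rho = 0.745 (exact permutation p = 0.0335 and 0.015, adjusted 0.251 and 0.201). No pair passed after adjustment. Among other genes of at least 1 CPM, 5% had an r above 0.725 with Jun and above 0.784 with Jund. The r of 0.665 for Jun and Jund lay below both limits. For Fos and Junb these limits were 0.54 and 0.596, below their r of 0.843. The WT mean and the permutation took female and male libraries together, and the part of sex in these correlations was not tested.

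The Fos and Junb relation did not hold without the libraries farthest from the median of Fos, and rests on them: r was 0.461 without WT replicate 5, and -0.336 without that library and cKO-labelled replicate 2. Within the 6 cKO-labelled libraries r was 0.60. For Jun and Jund r was 0.842 without WT replicate 5 and cKO-labelled replicate 1, the farthest for Jun. With each library left out in turn it went from 0.507, without WT replicate 4, to 0.723, without WT replicate 5. Within the 6 cKO-labelled libraries, all male, r for Jun and Jund was 0.54. Fos and Fosb had no steady relation: r was 0.216 over all libraries and went from -0.312 to 0.689 with each library left out. It was -0.802 within the 6 cKO-labelled libraries, where replicate 2 had the most Fos and the least Fosb, and above 0 within WT, where 5 libraries are too few to give a value. With Fosl2, r lay between -0.14 and 0.05 for the other 5 members. Over all 15 pairs the median r was 0.08, with 10 above 0. Without WT replicate 5 the median was -0.192, with 4 above 0.

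**Figure D4:**
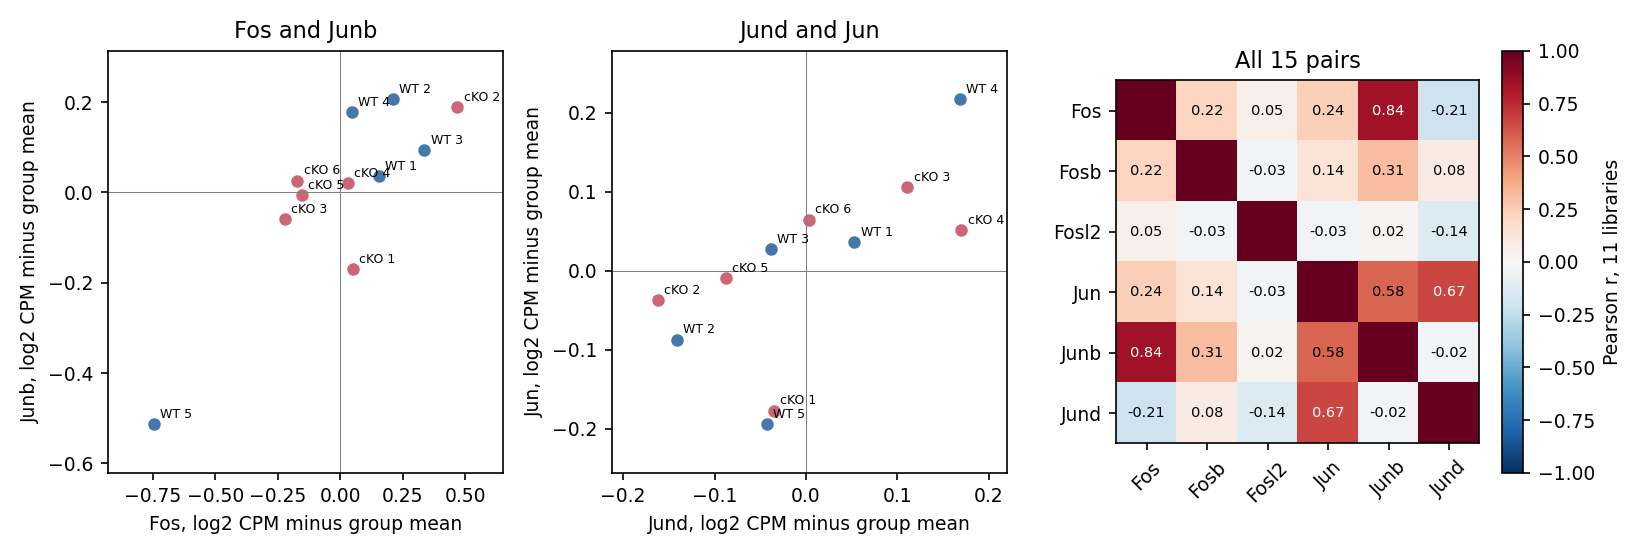
Left and middle, log2 CPM minus the group mean for Fos against Junb and for Jund against Jun, 1 point per library. Right, Pearson r of these deviations for all 15 pairs (11 libraries). WT replicate 5 lies far from the other points for Fos and Junb, and the highest r values are those of Fos with Junb (0.84) and Jun with Jund (0.67).

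By the same measure, the genes most like each member were looked for among 14305 others of at least 1 CPM. These libraries share dissection and sequencing, and an r over 11 points is a description. For Fos they were C4bp (r = 0.931), Rcbtb2 (0.922) and Aldh1a1, a retinaldehyde dehydrogenase (0.921), where 99% of genes lay below 0.703. Without WT replicate 5 these 3 had r from 0.786 to 0.886, and the 3 of Junb from 0.646 to 0.85. For Junb they were Hmgn5 (0.939), Urb2 (0.931) and Acat1, a mitochondrial thiolase (0.922), and for Fosb Zc2hc1a (0.918), Gng2 (0.906) and Zfand5 (0.905). Ypel2 (0.936) led for Fosl2 and Apex1, a DNA repair enzyme, stood at 0.956 for Jun. Jund was most like Wdr1, an actin-disassembly factor (0.975), Cdipt (0.97) and Tmem127 (0.968), and here 99% of genes lay below 0.896. High r with Jund was therefore common among genes: 5% of genes lay above 0.784, against 0.54 for Fos.

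Against 25 other immediate early genes, the members' correlations moved widely with WT replicate 5. Over all 11 libraries the median r was 0.575 for Fos and 0.628 for Junb, 0.30 for Jun, 0.299 for Fosb, 0.235 for Fosl2 and -0.117 for Jund. Without WT replicate 5 it was 0.078 for Fos, 0.278 for Junb, -0.106 for Jun, 0.017 for Fosb, 0.133 for Fosl2 and -0.275 for Jund. Egr2, a zinc-finger factor of the early response, stood at 0.861 with Fos and 0.913 with Junb, and Nr4a1, an orphan nuclear receptor, at 0.806 and 0.909. Without WT replicate 5 these were 0.505 and 0.525 for Egr2, and 0.402 and 0.661 for Nr4a1. Fosb had its highest r with Nr4a3 (0.732, and 0.641 without that library) and Egr4 (0.707 and 0.649).

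Those 25 genes also had mostly lower values in the cKO-labelled libraries. Of them 23 had lower and 2 higher values, with a median log2 fold change of -0.36, where all 16587 genes divided into 8293 higher and 8294 lower with a median of 0.00. edgeR called 0 of the 25, and 13 were lower and 1 higher at an unadjusted p under 0.05, against 5.35% and 3.84% of all genes. DESeq2 called 8 lower and 0 higher, against 0.193% and 0.181% of all genes. The 4 of smallest p were Dusp1, a MAP kinase phosphatase (-0.66 ± 0.10), Btg2, an antiproliferative factor (-0.57 ± 0.11), Ier2 (-0.54 ± 0.11) and Per1, a clock gene that responds to CREB (-0.25 ± 0.05; log2 ± SE). In the male libraries, where 2 WT libraries remain, the median of the list was -0.28. There Dusp1 was at -0.52, Btg2 at -0.39, Ier2 at -0.33 and Per1 at -0.28. DESeq2 on these libraries called none of these 4 genes (adjusted p = 0.441, 0.857, 0.931 and 0.649). The part of sex in the DESeq2 calls over all libraries was not tested. Earlier results had shown lower values of this class, so the list is no independent evidence.

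The factors that act on the Fos and Jun promoters showed no such shift. Of 17, among them Srf, Elk and CREB family genes, 9 had higher and 8 lower values, with a median of 0.00 and 0 called by edgeR or DESeq2. Before adjustment 2 higher and 1 lower had p under 0.05, against 3.84% and 5.35% of all genes. The 4 of smallest p were Elk3, an ETS factor (0.24 ± 0.08), Crtc2, a CREB coactivator (-0.18 ± 0.06), Mef2a (0.10 ± 0.04) and Creb1 itself (0.12 ± 0.06; log2 ± SE). In the male libraries Crtc2 was at -0.27, Mef2a at 0.06 and Creb1 at 0.02. The 18 genes of the MAP kinase cascade had 10 higher and 8 lower values, a median of 0.00 and 0 calls by either tool. At an unadjusted p under 0.05, 0 were higher and 2 lower, against 3.84% and 5.35% of all genes. Rps6ka2, a ribosomal S6 kinase, was at -0.16 ± 0.07, Map2k4, which activates JNK, at 0.09 ± 0.05, and Rps6ka1 at 0.13 ± 0.08 (log2 ± SE), the last at 0.26 in the male libraries and 0.08 without cKO-labelled replicate 2.

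Possible dimer partners and regulators of RNA or protein turnover were near the median of all genes as well. Of 14 partner genes 11 were tested, and Fosl1, Batf and Batf2 were under the filter. Of the 11 there were 6 higher and 5 lower values, with a median of 0.01 and 0 called by edgeR or DESeq2. At an unadjusted p under 0.05, 0 were higher and 1 lower, against 3.84% and 5.35% of all genes. Atf4, the stress-response factor, had 94.9 ± 9.20 CPM in the cKO-labelled libraries and 104.7 ± 6.32 CPM in WT. Atf7 was at -0.11 ± 0.07 and Mafg at -0.09 ± 0.06 (log2 ± SE), Mafg being at -0.20 in the male libraries and -0.04 without WT replicate 5. The 10 turnover regulators had 5 higher and 5 lower values, a median of 0.00, and 0 called by edgeR, by DESeq2 or at an unadjusted p under 0.05. Zfp36l2, which binds AU-rich elements, was at 0.16 ± 0.08, Fbxw7, a ubiquitin ligase subunit that targets Jun, at 0.05 ± 0.04, Itch, another ligase, at 0.06 ± 0.04, and Khsrp at -0.08 ± 0.05 (log2 ± SE). Zfp36l2 was at 0.03 in the male libraries and 0.10 without cKO-labelled replicate 1.

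Late activity genes and known AP-1 targets had mostly higher values in the cKO-labelled libraries. Of 14, there were 11 higher and 3 lower values, with a median of 0.11, and 0 were called by edgeR. The median was 0.23 in the male libraries and with a sex term, and 0.07 without cKO-labelled replicate 4. Before adjustment 1 higher and 1 lower had p under 0.05, against 3.84% and 5.35% of all genes. DESeq2 called 1 higher and 0 lower, against 0.181% and 0.193% of all genes. The 2 opioid peptide precursors had values of opposite sign. Penk averaged 46.7 ± 10.2 CPM in the cKO-labelled libraries against 32.3 ± 3.31 CPM for WT (log2 fold change 0.53 ± 0.15, SE; the DESeq2 call), and Pdyn 12.96 ± 1.81 and 18.4 ± 4.49 CPM (-0.51 ± 0.14). In the male libraries Pdyn was at -0.23 ± 0.13 and Penk at 0.48 ± 0.22, and with a sex term at -0.23 ± 0.16 and 0.48 ± 0.21 (log2 ± SE). Timp1, a protease inhibitor, had 15.3 CPM in cKO-labelled replicate 6 and at most 1.83 CPM in the other 10 libraries, and its log2 fold change of 3.05 was 0.96 without that library. Scg2, a secretogranin, was at 0.18 ± 0.10 (log2 ± SE), and at 0.36 in the male libraries.

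**Figure D5:**
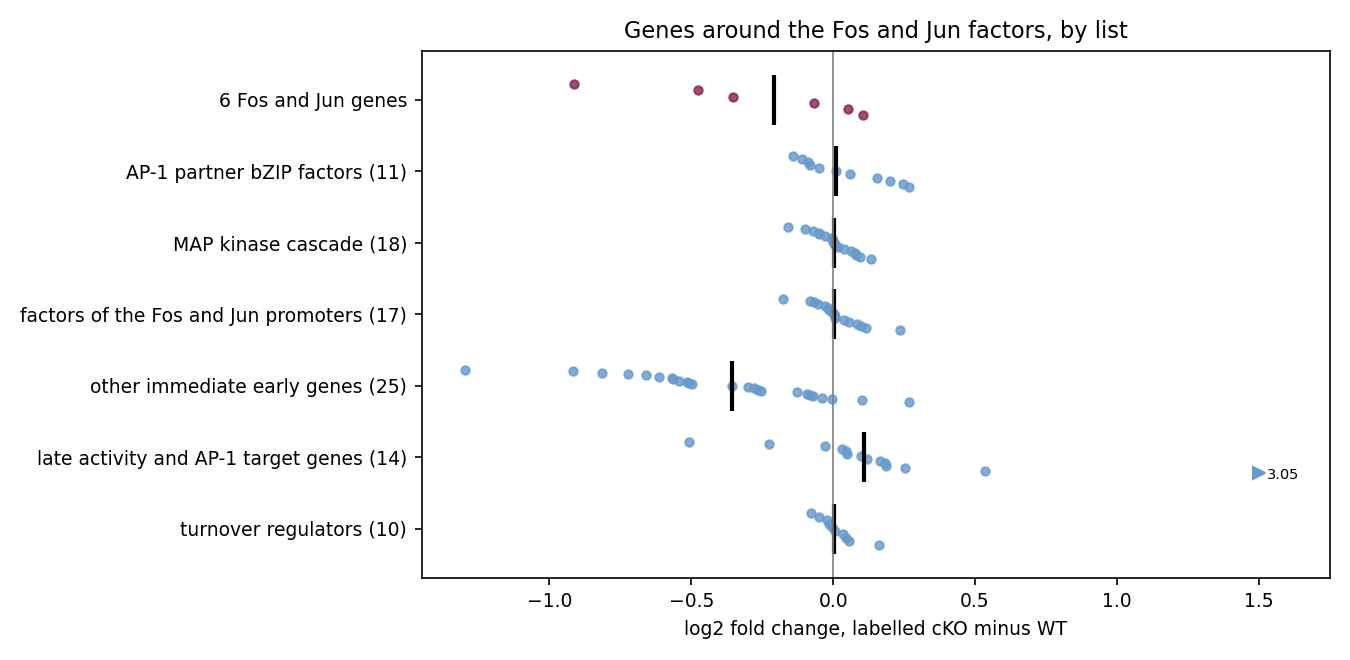
Log2 fold change (labelled cKO minus WT) of each tested gene of the 6 members and of 6 lists of related genes (number tested in brackets), with a bar at each median; the triangle is Timp1, drawn at the edge of the axis with its value of 3.05. The other immediate early genes lie mostly below 0 and the promoter factors, kinases, partners and turnover regulators around 0.

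Cell type markers were set beside these results. The 6 astrocyte markers and the 6 microglia markers each had higher values in the cKO-labelled libraries, with summed levels of 2630 to 5320 CPM against 2390 to 3090 CPM in WT for astrocytes and 504 to 678 against 493 to 541 CPM for microglia. The 7 dentate granule cell markers summed to 359 to 503 CPM and 377 to 499 CPM, with 5 lower and 2 higher, and the 6 CA1 markers to 685 to 816 CPM and 658 to 798 CPM, with 1 lower and 5 higher. WT replicate 5, the low library for Fos and Junb, had the lowest WT sum for dentate granule cells (377 CPM), and also for CA3 and CA2 pyramidal cells (414 CPM), astrocytes (2390 CPM), microglia (493 CPM), endothelial cells (170 CPM) and pericytes with smooth muscle (193 CPM). It had the highest WT sum for choroid plexus (155 CPM) and red blood cells (150 CPM). The part of these markers in the levels of the 6 genes was not tested.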

How the data were processed

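The authors deposited raw counts for each Ensembl gene, per the file headers, and these were used unchanged. Libraries were strand-marked (dUTP) and poly(A)-selected, per the labels' protocols. Build mm10 and bcl2fastq 2.17.1.14 are listed, per the submitters' processing notes. The aligner, the counting tool and its annotation, and whether strand was used: not given in the sources used here. Symbols matched 30566 of 30681 genes. Exon lengths are unions of GENCODE M21 exons.

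Groups follow the titles. No 2 libraries of a group agreed within sampling noise (smallest chi-square per degree of freedom 5.71). Genes passing filterByExpr (16587) were scaled by TMM and tested across all genes with edgeR's robust quasi-likelihood F test, 2-sided, with Benjamini-Hochberg adjustment at 0.05. Each standard error is the fold change divided by the root of F. Correlations use log2 CPM (prior count 2) minus group means (recomputed where libraries are left out), permuted within groups in all 86400 orders. Tools were edgeR 4.0.16, DESeq2 1.42.0 and limma 3.58.1 under R 4.3.3. The scripts were tested on simulated data.

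The members and lists were chosen with earlier results of these data known. Genes named are the members, Fosl1, Dclk3, the 4 of smallest p in each list and the 3 most correlated with each member (some not printed). Timp1's single library, the early genes set against Fos or Junb, and the motif TGACATCA were picked after their values were seen. Alternatives were other scalings, filters and tests, a replicate block, a sex term, the male libraries and each library left out.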

Additional observations from a re-analysis of the deposited data

Results flagged for a closer look

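In each gene and group the library farthest out was compared with the rest by its gap to the nearest value over the group's range (Dixon's 95% limit), over 12 sets of values. Fos in replicate 2 labelled cKO, at 11.05 CPM, was set apart from the other 5 (gap over range 0.663, limit 0.625). Junb in WT replicate 5, at 41.55 CPM, was set apart from the other 4 WT libraries (0.716, limit 0.71). Chance alone sets apart about 1 in 20 such groups.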

How the results depend on the processing

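The number of genes past the threshold was 0 by edgeR with TMM and with 16587 genes, 1 with library totals alone, 3 with no filter on low counts, 62 by DESeq2, 3 by DESeq2 on the male libraries (an alternative chosen after seeing the data) and 0 to 14 with each library left out in turn. The 14 came without WT replicate 5. Fos had a log2 fold change of -0.91 by DESeq2 (adjusted p = 0.000234) and from -1.06 to -0.83 with each library left out, and Junb -0.47 by DESeq2 (adjusted p = 0.00663) and from -0.59 to -0.43. Both passed the test by DESeq2 and by edgeR without WT replicate 5, and under none of the other alternatives, where edgeR's and limma's adjusted p for Fos ran from 0.128 to 0.854. The members were proposed from this contrast, and WT replicate 5 was the lowest WT library for both genes, so nothing is read from these calls. Jund changed sign, to 0.0267 with a sex term, 0.029 in the male libraries and 0.0297 there by DESeq2. Fos, Fosb, Fosl2, Jun and Junb kept their sign in all 22 alternatives. The median of the partner genes went from 0.01 to -0.0649 with the replicate block and -0.0628 by limma-voom, and that of the promoter factors from 0.00 to -0.0412 with a sex term, -0.0385 in the male libraries and -0.0383 there by DESeq2. The cause of these shifts was not tested. With the replicate block the log2 fold changes were -0.87 for Fos, -0.47 for Junb and -0.35 for Fosb, and 0 genes were called, as without it. The numbers did not pair the samples, since same-numbered libraries of the 2 groups had deviations correlated from -0.316 to 0.213 over genes. The median of the late activity and AP-1 target genes went from 0.11 to 0.226 with a sex term, 0.229 in the male libraries and 0.0722 with the replicate block, and Pdyn from -0.51 to -0.23 with a sex term. The mean correlation between the 6 genes went from 0.182 to -0.118 without WT replicate 5. Depth limits Fosl1, at 0 to 5 counts, then Fos and Fosb, at 171 and 180 counts in their lowest libraries.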
